A study of Rattus norvegicus with 16 samples.

Results

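In rats aged 1 year, 227 genes were abundant in the kidney and hardly detected in the aorta. Animals that had breathed 85% oxygen as newborns were compared with animals kept in room air (RA). Of the 227 kidney-restricted genes, 0 differed at a false discovery rate (FDR) under 0.1 with edgeR. At an unadjusted p under 0.05 edgeR gave 15, or 6.61% of the 227, beside 4.96% of all genes tested. A gene was taken as kidney-restricted when its mean over all 8 kidneys was at least 50 counts per 1000000 library counts (CPM) and its mean over all 8 aortas was under 1 CPM. Of 23918 Ensembl gene identifiers in the files, 227 met both limits. The rule averages over both exposures, so exposure played no part in choosing the genes. A gene near the kidney limit can still meet it through the group in which it is higher. The difference between kidney and aorta is not a finding, since the genes were selected on it.

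Polyadenylated RNA was sequenced from the kidney of 4 RA and 4 hyperoxia animals and from the aorta of 4 RA and 4 hyperoxia animals. All were male wild type Sprague-Dawley rats by their labels. The study evaluated rats of both sexes at 1 year, and its text does not give the sex of the animals sequenced. The hyperoxia animals breathed 85% oxygen from postnatal day 1 to 14 and then lived in RA, and the RA animals were labelled normoxia. The kidney libraries held 25031947 to 26521895 counts, the RA aorta libraries 33611558 to 47021630 and the hyperoxia aorta libraries 68643331 to 83929128. The study left out a hyperoxia kidney and does not say which. Its own kidney comparison used DESeq2 without that animal and reported both induced and suppressed genes. The fits over 8 kidneys here are therefore not a repeat of it. All 8 kidneys are given first, and results that turn on a kidney are given with and without it.

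The kidney is built mainly of tubules whose epithelium takes back salts, sugars and amino acids from the filtrate and secretes waste. Membrane transporters, brush border enzymes and metabolic enzymes of this epithelium are among the genes for which the kidney is best known, and the wall of the aorta, made of smooth muscle, elastic fibres and endothelium, expresses other sets of genes. Segments of the nephron express different sets of these genes, and the cortex and the medulla hold different segments. The files list identifiers without gene names, so it was not established which of these roles each gene has, and the labelled tissue could not be checked against named markers. The word restricted refers only to kidney against aorta, since other tissues were not measured.

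The kidney-restricted genes covered a wide range of abundance. Their mean over the 8 kidneys ran from 50.3 to 3856 CPM, with a median of 127 CPM, and 12 genes reached 1000 CPM. The least abundant stood at 50.3 CPM, and the nearest gene under the kidney limit at 49.1 CPM. The 10 most abundant genes held 35.8% of the counts of all 227, and the 50 most abundant held 69.1%. At this depth counting error was small, since the least abundant gene still had 809 counts in its lowest kidney, which gives a counting error of 3.52%.

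Together the 227 genes took 6.48%, 6.52%, 6.35% and 8.10% of the counts in RA kidneys 1 to 4. They took 7.32%, 6.93%, 8.40% and 5.85% in hyperoxia kidneys 1 to 4. The groups overlapped fully, with the highest and the lowest of the 8 shares both in hyperoxia kidneys. The mean share was 6.86% ± 0.830 in RA and 7.13% ± 1.05 in hyperoxia (SD, n = 4 each). In whole tissue, fewer cells of a type and less RNA per cell cannot be told apart.

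In the aorta the same genes were at trace level, as the rule required. Their mean over the 8 aortas had a median of 0.0781 CPM, with the highest at 0.984 CPM and the nearest gene above the limit at 1.00 CPM. The estimated counts rounded to 0 in all 8 aortas for 38 of the 227 genes, which includes values under 0.5, and 3 counts over the 467564084 counts of these libraries would correspond to 0.00642 CPM. The 227 genes summed to 51.2 ± 7.58 CPM in RA aortas and 50.6 ± 6.16 CPM in hyperoxia aortas (SD, n = 4 each). The traces ranged from 42.4 to 59.3 CPM in RA and from 42.4 to 56.2 CPM in hyperoxia, so the groups overlapped in the aorta as well.

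The effect of neonatal hyperoxia on the kidney was tested with edgeR's quasi-likelihood test over all 15069 genes that passed its expression filter, which include all 227. A gene was called when its FDR was under 0.1 and its log2 fold change exceeded 0.32 in either direction. Of the kidney-restricted genes, 0 were called higher and 0 lower, beside 0% of all genes tested, and the lowest FDR among them was 0.950. DESeq2 on the same 8 kidneys also called 0 of the 227 (lowest FDR 0.202), beside 0.167% of all genes it tested. At an unadjusted p under 0.05 DESeq2 gave 23 of the 227, or 10.1%, beside 4.86% of all genes. At an unadjusted p under 0.05 in edgeR, 7 kidney-restricted genes were higher in hyperoxia, beside 2.81% of all genes tested, and 8 were lower, beside 2.14%. The 15 genes together made up 6.61% of the 227, near the 4.96% of all genes tested. With voom and sample quality weights, 63 genes or 27.8% had an unadjusted p under 0.05, beside 14.2% of all genes tested, and 0 passed the thresholds.

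The fold changes pointed both ways. Of the 227 genes, 126 had a positive and the remaining a negative log2 fold change. The median was 0.04, beside 0.01 for all genes tested, and −0.01 beside −0.03 when libraries were scaled by their totals only. The middle of the distribution was wide, from −0.46 at the 10th percentile to 0.49 at the 90th. For the 3032 other genes with at least 50 CPM in the kidney these percentiles were −0.15 and 0.19, with a median of 0.01. A change of more than 2-fold in either direction was fitted for 5 kidney-restricted genes, at standard errors that left each of them uncalled.

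**Figure D1:**
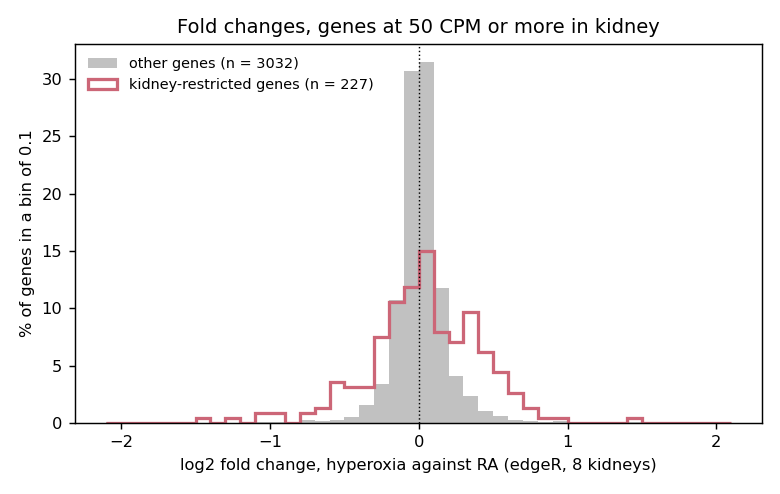
Distribution of log2 fold changes of hyperoxia against RA over 8 kidneys (x axis, edgeR), as the percentage of genes in each bin of 0.1 (y axis), for the 227 kidney-restricted genes (red outline) and the 3032 other genes at 50 CPM or more (grey). Both are centred near 0, and the kidney-restricted genes spread wider, from −0.46 to 0.49 between their 10th and 90th percentiles.

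The higher gene with the smallest p-value was ENSRNOG00000003288. It stood at 46.8, 55.4, 48.1 and 102 CPM in RA kidneys 1 to 4 and at 173, 126, 266 and 67.8 CPM in hyperoxia kidneys 1 to 4. Hyperoxia kidneys 1, 2 and 3 lay above every RA kidney, and hyperoxia kidney 4 lay below RA kidney 4, so the groups overlapped through these animals. The log2 fold change was 1.41 (standard error 0.44, unadjusted p = 0.0110, FDR 0.950 from edgeR). Leaving out each kidney in turn moved it between 0.98 and 1.73, with FDRs from edgeR of 0.374 without hyperoxia kidney 2 and 0.537 without hyperoxia kidney 4. With DESeq2 its FDR was 0.202 over 8 kidneys, 0.0308 without hyperoxia kidney 2 and 0.00327 without hyperoxia kidney 4.

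ENSRNOG00000055530, the next higher gene, stood at 52.7, 50.8, 45.7 and 66.2 CPM in RA kidneys 1 to 4. It stood at 85.1, 76.1, 88.2 and 51.5 CPM in hyperoxia kidneys 1 to 4. The arrangement of the animals was like that of the gene before it, with hyperoxia kidney 4 among the RA values. The log2 fold change was 0.54 (standard error 0.19, unadjusted p = 0.0217, FDR 0.950 from edgeR), and without hyperoxia kidney 4 its FDR was 0.537 from edgeR. From DESeq2 it was 0.535 over 8 kidneys and 0.0199 without hyperoxia kidney 4.

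Among the lower genes, ENSRNOG00000001776 had the smallest p-value. It stood at 62.6, 70.9, 76.1 and 49.9 CPM in RA kidneys 1 to 4 and at 43.6, 57.6, 28.8 and 43.0 CPM in hyperoxia kidneys 1 to 4. Hyperoxia kidney 2 lay above RA kidney 4, and the other hyperoxia kidneys lay below all RA kidneys. The gene's mean was 64.9 CPM in RA and 43.2 CPM in hyperoxia, so only its RA mean reached the kidney limit of 50 CPM. Its fitted log2 fold change was −0.58 (standard error 0.19, unadjusted p = 0.0139, FDR 0.950 from edgeR), and without hyperoxia kidney 2 its FDR was 0.391 from edgeR. From DESeq2 it was 0.407 over 8 kidneys and 0.0926 without hyperoxia kidney 2.

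ENSRNOG00000059741 was nearly constant in RA, at 63.0, 59.5, 59.8 and 58.2 CPM in kidneys 1 to 4. In hyperoxia kidneys 1 to 4 it stood at 28.3, 65.4, 27.9 and 42.6 CPM. Hyperoxia kidney 2 exceeded every RA kidney for this gene, while the other 3 lay below all of them. The gene's mean was 60.2 CPM in RA and 41.1 CPM in hyperoxia, so again only the RA mean reached 50 CPM. The log2 fold change was −0.55 (standard error 0.20, unadjusted p = 0.0216, FDR 0.950 from edgeR), and without hyperoxia kidney 2 its FDR was 0.292 from edgeR. From DESeq2 it was 0.497 over 8 kidneys and 0.000223 without hyperoxia kidney 2.

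The groups were fully apart for 1 kidney-restricted gene, which was lower in hyperoxia, beside 1.02% of all genes tested in this direction. None was higher without overlap, beside 0.816% of all genes. The gene was ENSRNOG00000013768, picked out after its values were seen, at 295, 459, 296 and 292 CPM in RA kidneys 1 to 4. It stood at 250.3, 223, 136 and 274 CPM in hyperoxia kidneys 1 to 4, so the closest animals of the groups were near each other. Its log2 fold change was −0.57 (standard error 0.23, unadjusted p = 0.0370, FDR 0.950 from edgeR).

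**Figure D2:**
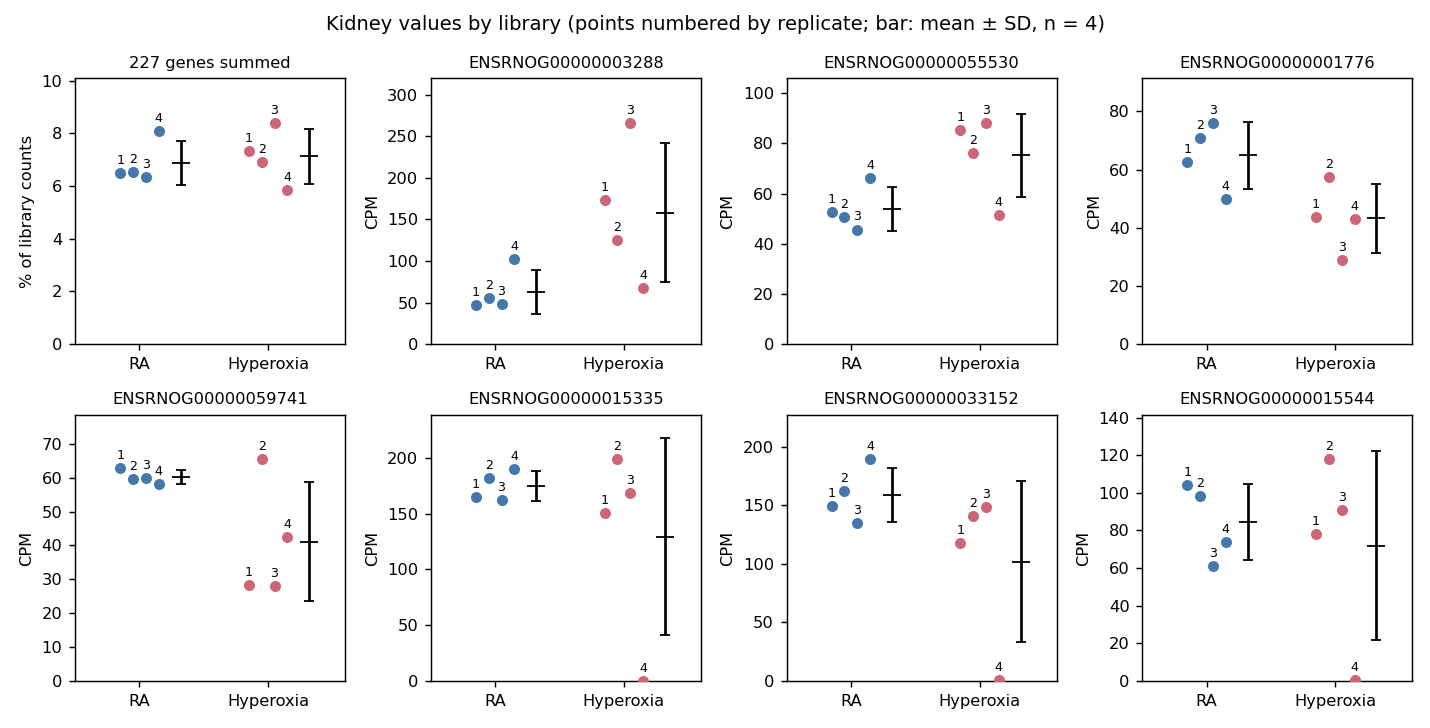
Values in each kidney for the 227 genes summed (% of library counts) and for 7 genes (CPM), with RA in blue, hyperoxia in red, points numbered by replicate and bars for the mean ± SD of 4 animals. The higher genes ENSRNOG00000003288 and ENSRNOG00000055530 have hyperoxia kidney 4 among the RA values, the lower gene ENSRNOG00000059741 has hyperoxia kidney 2 above all RA values, and the last 3 panels show genes near 0 in hyperoxia kidney 4.

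Among the 10 most abundant kidney-restricted genes, all at 1459 CPM or more, 8 had a positive log2 fold change, beside 55.5% of the 227. The groups overlapped for all 10, as they did for all but 1 of the 227. The log2 fold changes of these 10 lay between −0.04 and 0.61, with a smallest unadjusted p of 0.125 (FDR 0.950 from edgeR). The most abundant gene stood at 2894, 2660, 3574 and 4095 CPM in RA kidneys 1 to 4 and at 4734, 3733, 6185 and 2977 CPM in hyperoxia kidneys 1 to 4. Fitted over these animals, hyperoxia differed from RA by 0.48 on the log2 scale with a standard error of 0.28. Hyperoxia kidney 3 was the highest of the 8 kidneys for 6 of these 10 genes, beside 34.4% of the 227 and 14.4% of the 3032 other genes at 50 CPM or more. Hyperoxia kidney 4 was the lowest for 4 of the 10, beside 27.8% of the 227 and 27.1% of the other genes.

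The kidney-restricted genes varied widely from kidney to kidney. The SD of log2(CPM + 1) had a median of 0.26 over the 4 RA kidneys and 0.43 over the 4 hyperoxia kidneys. For the 3032 other genes at 50 CPM or more, the medians were 0.11 in RA and 0.19 in hyperoxia. The biological coefficient of variation that edgeR estimated had a median of 24.1% for the kidney-restricted genes and 12.7% for the other genes. Counting error for the least abundant gene was 0.05 on the same log2 scale. These values describe the lists, and the difference between them was not tested.

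The wider spread was present at each level of abundance. In RA, the median SD of the kidney-restricted genes was 0.24 at 50 to 100 CPM, 0.27 at 100 to 300 CPM and 0.27 at 300 CPM or more. The other genes at these levels had 0.11, 0.12 and 0.16. In hyperoxia, the medians were 0.44, 0.41 and 0.46 for the kidney-restricted genes and 0.18, 0.19 and 0.22 for the other genes.

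The spread was larger among hyperoxia than among RA kidneys for 180 of the 227 genes, a share of 79.3%. The same held for 76.6% of the 3032 other genes, so a wider spread in hyperoxia was not confined to the kidney-restricted genes. Without hyperoxia kidney 4 the median SD of the kidney-restricted genes in hyperoxia was 0.35, and without hyperoxia kidney 3 it was also 0.35. Without RA kidney 4 the median SD in RA was 0.21.

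**Figure D3:**
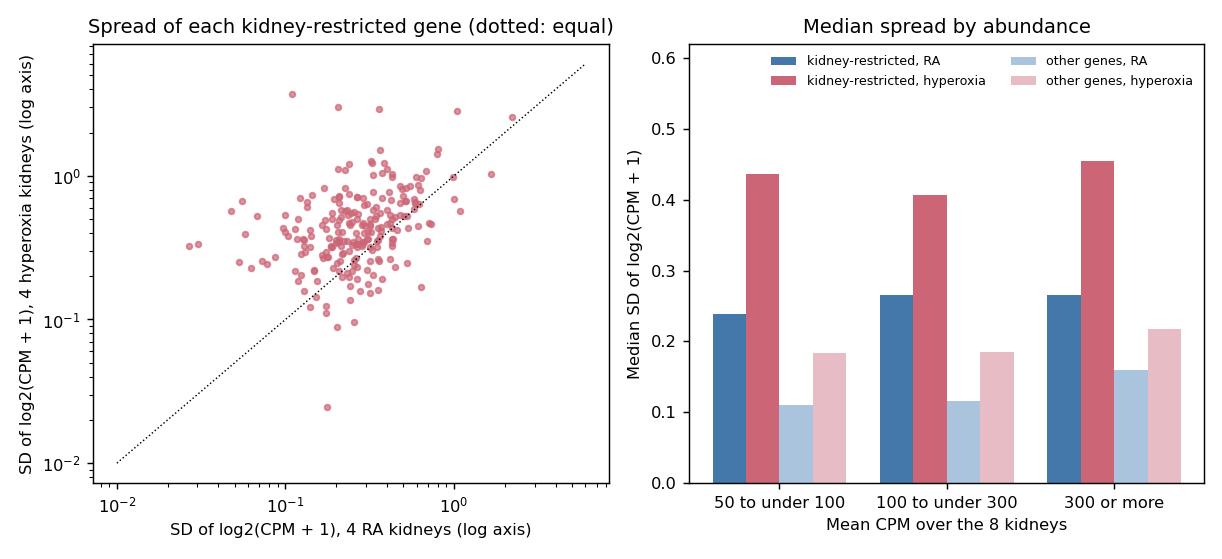
Left, SD of log2(CPM + 1) over 4 RA kidneys (x axis) and over 4 hyperoxia kidneys (y axis) for each of the 227 genes, on log axes, with 180 points above the dotted line of equal spread. Right, median SD (bars from 0) of kidney-restricted and other genes in RA and hyperoxia at 3 levels of mean CPM, with the kidney-restricted genes higher at each level.

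At the extremes, the least variable kidney-restricted gene stood between 147 and 188 CPM over the 8 kidneys, with an SD of 0.12 on the log2 scale. The next stood between 90.4 and 116 CPM. Of the 5 genes with the largest SD over the 8 kidneys, from 2.04 to 2.63 on the log2 scale, 4 had a value at or near 0 in a single animal. The remaining one, ENSRNOG00000029861, picked out with its values seen, ranged from 25.3 to 782 CPM among RA kidneys and from 9.30 to 389 CPM among hyperoxia kidneys, so it varied within both groups and its groups overlapped. Another stood at 24.5 to 141 CPM in RA and at 0.0778, 97.5, 36.5 and 16.3 CPM in hyperoxia kidneys 1 to 4, with hyperoxia kidney 1 alone near 0.

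The individual hyperoxia kidneys departed from RA in different directions. Set against the range of the 4 RA kidneys, hyperoxia kidney 3 lay above it for 83 of the 227 genes and below it for 72. Hyperoxia kidney 4 lay above the RA range for 22 genes and below it for 92. Hyperoxia kidney 1 lay above for 34 and below for 63, and hyperoxia kidney 2 above for 57 and below for 50. For 35 genes, hyperoxia kidney 3 was above all RA kidneys and hyperoxia kidney 4 was below all of them, and for 14 genes the reverse held. These shares were 15.4% and 6.17%, beside 9.43% and 6.73% of the other genes at 50 CPM or more.

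In some animals these shares stood apart from those of the other genes at 50 CPM or more, a difference that was not tested. Hyperoxia kidney 1 lay below all RA kidneys for 45.3% of the other genes and 27.8% of the kidney-restricted genes, and above all of them for 208 of the 3032 other genes and 34 of the 227. Hyperoxia kidney 2 lay above all RA kidneys for 44.8% of the other genes and for 25.1% of the kidney-restricted genes. In hyperoxia kidney 3 the order was the opposite, with 19.5% of the other genes and 36.6% of the kidney-restricted genes above all RA kidneys. Hyperoxia kidney 4 was below all RA kidneys for 42.8% of the other genes and 40.5% of the kidney-restricted genes, which are close to each other. CPM is relative to the library total, and the TMM factors of the libraries, which rescale them for composition, ran from 0.906 in hyperoxia kidney 3 to 1.14 in hyperoxia kidney 2, so these shares also carry differences in composition over all genes. The part of composition in them was not tested.

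**Figure D4:**
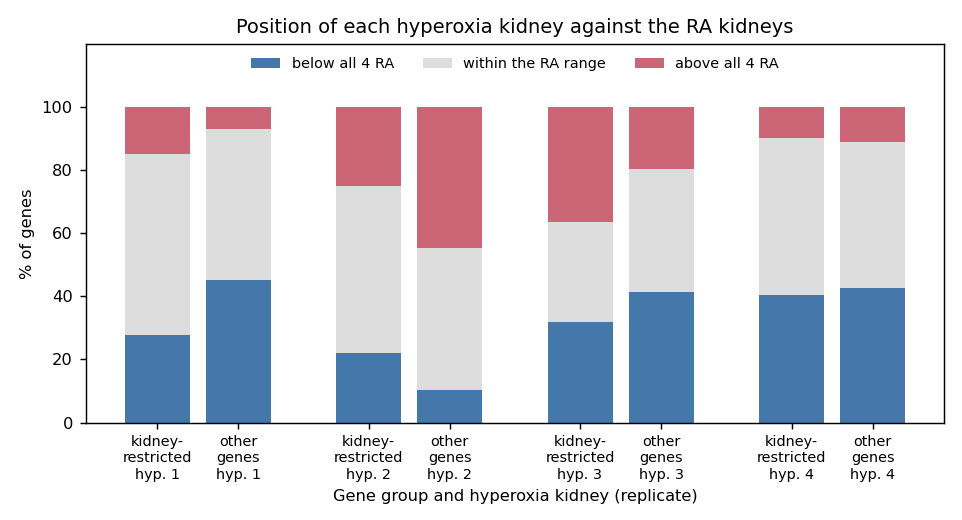
Percentage of genes (y axis) for which each hyperoxia kidney lay below all 4 RA kidneys (blue), within their range (grey) or above all of them (red), for the 227 kidney-restricted genes and the 3032 other genes. Hyperoxia kidney 3 has the largest red share among the kidney-restricted genes (36.6%) and hyperoxia kidney 2 among the other genes (44.8%).

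The RA kidneys were not alike either. RA kidney 4 was the highest of the 8 kidneys for 49 of the kidney-restricted genes and the lowest for 0, with a median of 0.22 above the RA mean on the log2 scale. RA kidney 3 was the highest for 17 and the lowest for 41, with a median of 0.15 below the RA mean, that is −0.15. The medians of hyperoxia kidneys 1 to 4 against the RA mean were 0.05, 0.10, 0.19 and −0.22, so hyperoxia kidneys 1, 2 and 3 lay within the span of the RA kidneys and hyperoxia kidney 4 below it.

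In a principal component analysis of the 227 genes, hyperoxia animals lay at both ends of the first component. Component 1 held 39.9% of the variance, with hyperoxia kidney 4 at 10.8 and hyperoxia kidney 3 at −8.24. The 4 RA kidneys lay between them, from −2.57 to 2.84, and so did hyperoxia kidneys 1 and 2, at −1.93 and −3.23. Component 2 held 26.7%, with hyperoxia kidneys 1, 3 and 4 at 5.20, 5.42 and 5.43. The RA kidneys lay between −3.88 and −0.92 on component 2, and hyperoxia kidney 2 at −4.16 lay on their side.

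**Figure D5:**
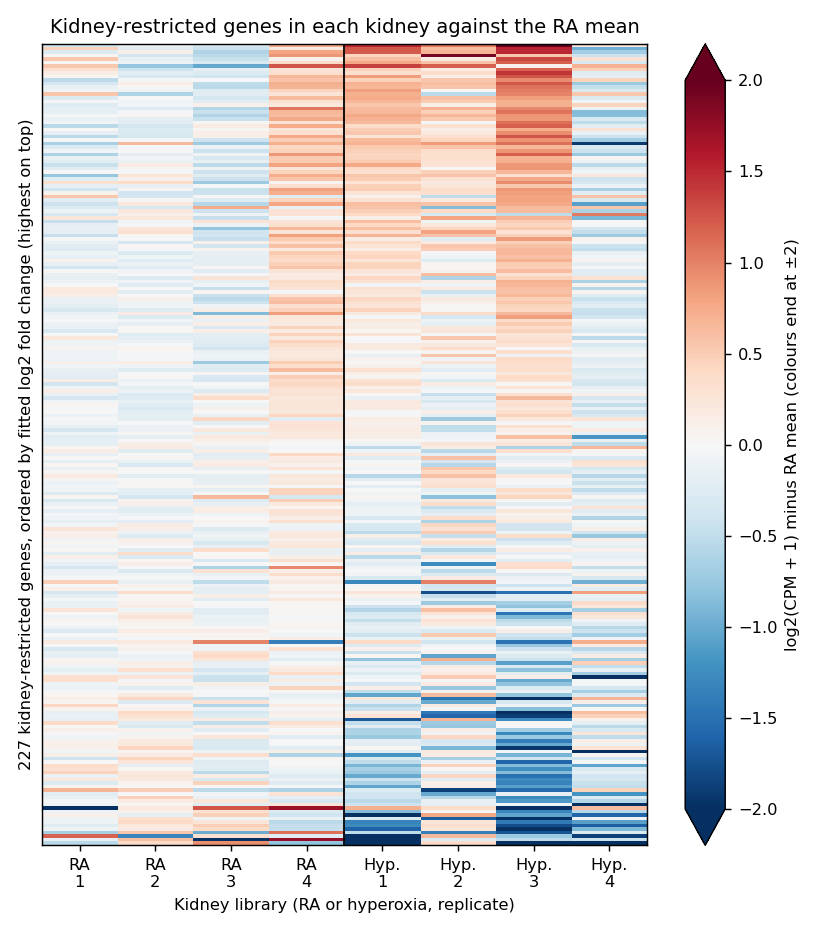
log2(CPM + 1) of the 227 kidney-restricted genes (rows, ordered by fitted log2 fold change, highest on top) in each of the 8 kidneys (columns), minus the mean of the 4 RA kidneys, with red for higher and blue for lower. Hyperoxia kidney 3 is the highest of the 8 for 78 genes (34.4%, beside 14.4% of the 3032 other genes at 50 CPM or more). Hyperoxia kidney 4 is the lowest for 63 (27.8%, beside 27.1% of the other genes).

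Calls appeared when one hyperoxia kidney was left out, and the genes called depended on which. With DESeq2 without hyperoxia kidney 2, 5 kidney-restricted genes were called higher, beside 0.95% of all genes tested, and 13 lower, beside 1.6%, which together are 7.93% of the 227, beside 2.55% of all genes. With DESeq2 without hyperoxia kidney 4, 7 were called higher, beside 0.612%, and 0 lower, beside 0.246%, which together are 3.08% of the 227, beside 0.858% of all genes. Without hyperoxia kidney 1 or 3, DESeq2 called 0 of the 227 (lowest FDR 0.709 and 0.306). With edgeR, 0 were called without any one of the 8 kidneys. In a single set of counts simulated for all 8 kidneys, with the variation edgeR had estimated, DESeq2 made more false calls than edgeR. None of the simulated kidneys was made to depart from its group, and fits with a kidney left out were not simulated. The set therefore does not measure false calls in the fits above. Without hyperoxia kidney 2, the values of the groups did not overlap for 4 higher genes, beside 1.23% of all genes tested, and for 28 lower genes, beside 12%. The 28 genes are 12.3% of the 227, near the share of all genes. Only 1 gene was called higher in both DESeq2 fits, which is 20% of the calls without kidney 2 and 14.3% of the calls without kidney 4, and that gene was ENSRNOG00000003288.

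The number at an unadjusted p under 0.05 also moved with the kidney left out. With DESeq2 it was 51 (22.5%) without hyperoxia kidney 2, beside 8.41% of all genes, and 62 (27.3%) without hyperoxia kidney 4, beside 7.22%. Without hyperoxia kidney 1 it was 14 (6.17%), beside 3.62%, and without hyperoxia kidney 3 it was 10 (4.41%), beside 4.29%. With edgeR the count ran from 4 (1.76%) without RA kidney 2, beside 2.95% of all genes, to 49 (21.6%) without hyperoxia kidney 4, beside 8.06%. In between lay 37 (16.3%) without hyperoxia kidney 2, beside 9.71%, and 27 (11.9%) without RA kidney 4, beside 5.65%. The share of the kidney-restricted genes thus stood above that of all genes in some of these fits and below it in others.

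The kidney that was left out is described here for the genes called in its absence. None of these genes was called when no kidney was left out, so a position against the call is largely set by how they were chosen. ENSRNOG00000003288 was called higher without hyperoxia kidney 2 and also without hyperoxia kidney 4, so each of these kidneys was included in a fit that called it. For the 13 genes called lower without hyperoxia kidney 2, with log2 fold changes from −2.66 to −0.42, that kidney lay above the RA mean for 12 and below it for 1, and it was above all 4 RA kidneys for 7. For the 5 genes called higher it lay above the RA mean for 4, with 1 above all RA kidneys. For the 7 genes called higher without hyperoxia kidney 4, with log2 fold changes from 0.40 to 1.68, that kidney lay below the RA mean for 6 and below all RA kidneys for 5.

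A group of 3 kidney-restricted genes was at or near 0 in hyperoxia kidney 4 and abundant in the other 7. They were found by asking, for each kidney, which genes lay more than 10-fold below all other kidneys, a search made with the values known. ENSRNOG00000015335 stood at 165, 182, 162 and 190 CPM in RA kidneys 1 to 4 and at 151, 199 and 168 CPM in hyperoxia kidneys 1 to 3, and had 0 counts in hyperoxia kidney 4. A count of 0 there allows up to 0.120 CPM (3 counts), so this kidney was at least 1259-fold lower than the lowest of the others, a limit that covers counting error only. In the 8 aortas this gene also had no counts.

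ENSRNOG00000033152 stood at 135 to 189 CPM in the RA kidneys and at 118 to 148 CPM in hyperoxia kidneys 1 to 3. In hyperoxia kidney 4 it had 27 counts, or 1.06 CPM. ENSRNOG00000015544 stood at 61.1 to 104 CPM in RA and at 78.1 to 118 CPM in hyperoxia kidneys 1 to 3, and had 17 counts, or 0.696 CPM, in hyperoxia kidney 4. Both were thus detected in hyperoxia kidney 4, far below their level in the other kidneys.

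None of the 3 genes passed the test of exposure. Fitted over all 8 kidneys, their log2 fold changes were −0.40, −0.59 and −0.21, with standard errors of 1.08, 0.90 and 0.90 (FDR 0.984, 0.971 and 0.989 from edgeR). Without hyperoxia kidney 4 they were 0.02, −0.18 and 0.21 with standard errors of 0.08, 0.13 and 0.18 (FDR 0.969, 0.710 and 0.759 from edgeR). No kidney-restricted gene was more than 10-fold above all other kidneys in any animal. The library is labelled male like the others, and since genes could not be named, its sex was not checked. The cause of these low values was not tested.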

How the data were processed

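Kidney and aorta RNA of 4 RA and 4 hyperoxia animals each was analysed. The authors assigned reads to rat build rn6.0 with kallisto and summed them with tximport, and the deposited values are estimated counts (expected counts) per Ensembl identifier, not normalized; versions, annotation release and tximport setting are not given in the sources used here. Between 25.5% and 27.0% of the kidney values were not whole, and all were rounded for the tests. CPM used library totals of the deposited values.

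Hyperoxia was compared with RA over the 8 kidneys with edgeR 4.0.16 in R 4.3.3 (filter by group, TMM, quasi-likelihood test, Benjamini-Hochberg adjustment). Standard errors come from the F statistics. Alternatives were DESeq2 1.42.0, voom with quality weights (limma 3.58.1), other scalings and filters, other limits for choosing genes, and leaving out kidneys in turn. In a single set of counts simulated for all 8 kidneys, edgeR, DESeq2 and voom each recovered most of the changed genes. Each made more false calls in this set than its threshold allows on average, DESeq2 the most. The set was drawn with the variation edgeR had estimated, and a single draw cannot measure a false discovery rate. The methods of the study give 4 animals per group and organ.

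The genes, lists and rules were chosen with earlier results of these data known. Genes named were the 2 higher and 2 lower with the smallest p-value; others were chosen after seeing values. The rule for choosing genes also names 4 identifiers to leave out, of which 0 met its limits. Of 23918 identifiers, 0 occur in the RefSeq tables used here (assembly GRCr8), so names, 13 marker lists, promoters and sequences were not analysed here.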

Additional observations from a re-analysis of the deposited data

Results flagged for a closer look

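In 18 sets of 4 libraries, a search was made for one far from the rest, over the summed level of the kidney-restricted genes in kidney and aorta and the 7 genes plotted by kidney. The search found 2. Chance gives about 0.9 in 18 sets that were not chosen by their values, a number that does not apply here, since the 7 genes were chosen by p-value or for a low value in one kidney.

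Both were RA kidney 4. It held 8.10% of its counts in the kidney-restricted genes, with the other RA kidneys between 6.35% and 6.52%. For ENSRNOG00000003288 it stood at 102 CPM, with the other RA kidneys between 46.8 and 55.4 CPM. The same kidney was the highest of the 8 for 49 of the 227 genes, and for 25.7% of the other genes at 50 CPM or more.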

How the results depend on the processing

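No kidney-restricted gene passed the thresholds with edgeR under any scaling, filter or gene limit, with voom or with DESeq2 over 8 kidneys; DESeq2 gave 18 without hyperoxia kidney 2 and 7 without hyperoxia kidney 4. The number at an unadjusted p under 0.05 was 15 with edgeR (6.61% of the 227, beside 4.96% of all genes tested) and 23 with DESeq2 (10.1%, beside 4.86%). With voom and quality weights it was 63 (27.8%, beside 14.2%). DESeq2 gave 51 (22.5%, beside 8.41%) and 62 (27.3%, beside 7.22%) without hyperoxia kidneys 2 and 4. It gave 14 (6.17%, beside 3.62%) and 10 (4.41%, beside 4.29%) without hyperoxia kidneys 1 and 3. Of only the 128 genes under 0.1 CPM in the aorta, edgeR over 8 kidneys gave 8, beside the same 4.96% of all genes tested. With edgeR leaving out each kidney, the number ran from 4 (1.76%, beside 2.95%) to 49 (21.6%, beside 8.06%). The 49 came without hyperoxia kidney 4. Next were 37 (16.3%, beside 9.71%) without hyperoxia kidney 2 and 27 (11.9%, beside 5.65%) without RA kidney 4. The median log2 fold change ranged from −0.04 to 0.15 over these fits. Genes whose groups did not overlap numbered 1 over 8 kidneys and 2 to 32 leaving out each kidney. The 32, without hyperoxia kidney 2, comprised 4 higher and 28 lower, beside 1.23% and 12% of all genes tested. Leaving out each kidney, the median SD ranged from 0.21 to 0.29 in RA and from 0.35 to 0.49 in hyperoxia, and the share of genes with the larger SD in hyperoxia from 61.7% to 89.0%; with TMM-scaled CPM this share was 89.9%. Of 125 refits of the 7 genes, 5 brought an FDR under 0.1, all with DESeq2 without a kidney. In 4 the sign of the fold change turned, for ENSRNOG00000015335 and ENSRNOG00000015544 without hyperoxia kidney 4 with both tools, each uncalled before and after. The cause was not tested for these changes. RA and hyperoxia kidneys come from different animals, so the comparison was not paired, and litter was not part of the fits. Among the hyperoxia libraries, 3 numbers occur in both kidney and aorta, and whether these mark the same animals was not established.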

Other observations

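Over all genes, hyperoxia kidney 4 had the most values more than 10-fold away from the other 7. In it 5 genes, including the 3 kidney-restricted ones, lay more than 10-fold below all other kidneys where these had at least 5 CPM, and 4 genes lay more than 10-fold above all others at 5 CPM or more. In the other 7 kidneys, from 0 to 2 genes lay below and 0 to 1 above by these limits. The 4 genes above were not kidney-restricted. Measured within groups of 4, by a gap to the nearest library past Dixon's critical value for 4 samples, other kidneys stood apart more often. Hyperoxia kidney 2 did so for 13 kidney-restricted genes and 126 other genes at 50 CPM or more, and RA kidney 4 for 12 and 149, whereas hyperoxia kidney 4 did so for 1 and 18.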
